A study of Mus musculus with 4 samples.

Results

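Adenosine and purinergic signalling was examined in mouse primary myotubes through 10 genes: the adenosine receptor genes Adora1, Adora2a and Adora2b, the purine receptor genes P2rx4, P2rx5 and P2ry2, the ATP release channel gene Panx1, and the enzyme genes Entpd1, Nt5e and Ada. They are 10 of the 53647 genes in the count tables and were matched by their GENCODE symbols. They were picked by name for this pathway with their response to EDA-A2 already known, so their own changes are given as a description without p-values. Another 86 genes that work in the same pathway were listed by function and are reported with tests. That list too was made with earlier results of these data known, and its p-values do not allow for that choice.

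The myotubes were wild type, differentiated from myoblasts of the limb muscles of pups aged 2 to 3 days, in medium with horse serum. The treated group received recombinant EDA-A2, a ligand of the TNF family whose receptor is EDA2R, at 250 ng/mL for 24 h, and the labels call the other group only Control, without naming a carrier. Both groups were harvested 72 h after differentiation was started, and each group held 2 libraries of polyadenylated RNA. The labels do not say whether the 2 libraries of a group came from separate cultures, so the p-values measure the spread between these libraries, which may be technical.

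ATP that leaves a cell acts on P2X receptors, which are ATP-gated cation channels, and on P2Y receptors, which couple to G proteins. Ectoenzymes on the cell surface strip its phosphates until adenosine remains: CD39, encoded by Entpd1, takes ATP and ADP to AMP, and CD73, encoded by Nt5e, takes AMP to adenosine. Adenosine acts on its own receptors, of which the product of Adora1 lowers cyclic AMP and those of Adora2a and Adora2b raise it, and the signal ends when adenosine is deaminated by adenosine deaminase or carried into the cell by nucleoside transporters. In skeletal muscle, contraction releases ATP in part through pannexin 1, and adenosine receptors take part in the control of blood flow and glucose uptake.

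Counts on genes summed to between 29444155 and 29746863 per library, and a count of 0 allows up to 3 counts, or 0.101 to 0.102 CPM (counting error only). Replicates differed by more than sampling noise, with a chi-square per gene of 9.94 for the control pair and 4.73 for the EDA-A2 pair. Normalized counts below are counts scaled to the mean library size after edgeR's TMM factors. Markers of differentiated myotubes were abundant in every library. However, their summed level per exon length was 20581 to 21648 TPM (counts per exon base, scaled to 1 total for every library) in control and 16999 to 17016 TPM after EDA-A2. Of these markers 3 of 8 were called lower, where 2.45% of all genes tested were called higher and 2.13% lower. Markers of macrophages summed to 11.9 to 12.5 TPM in control and 14.9 to 18.9 TPM after EDA-A2. Of the 7, 3 (Ptprc, Adgre1 and Lyz2) had no more than 3 counts in every library. Cd68, Cd14 and Mrc1, the 3 that were tested, had log2 fold changes of 0.30, 0.94 and 0.32, and 0 were called. Summed levels for endothelial cells were 0.845 to 1.05 TPM and 1.01 to 1.12 TPM, for T cells at most 0.0394 TPM and 0.0637 TPM (Cd4 and Cd8a at 0), for fibroblasts 831 to 839 TPM and 816 to 819 TPM (Lum at 0), for myoblasts 85.9 to 93.0 TPM and 90.9 to 92.8 TPM, and for dividing cells 352 to 428 TPM and 405 to 416 TPM, in control and EDA-A2 libraries in turn. Of these markers 1 was called, Cd34 of the myoblast list, which was higher, but 0 of the T cell list and 1 of the endothelial list were tested. In control the fibroblast sum was mostly collagen, with Col3a1 at 659 TPM and Col1a1 at 172 TPM (means). Pdgfra was at 3.42 TPM, Dcn at 1.06 TPM and Dpt at 0.108 TPM. For neurons and Schwann cells the sums were 71.2 to 80.3 TPM and 103 to 114 TPM, with Sox10 at 0 and Tubb3 called higher. The part of these differences in the results below was not tested, and in bulk RNA fewer cells of a type cannot be told apart from less RNA per cell.

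The resting level of the 10 genes came first. In control myotubes the 3 most abundant per length were Adora2b, at 26.7 ± 2.92 TPM (SD, n = 2), Nt5e, at 21.9 ± 1.05 TPM, and Panx1, at 13.5 ± 0.769 TPM. P2rx4 followed at 8.29 ± 0.752 TPM. Lower levels were found for Adora1 (4.55 ± 0.614 TPM), P2ry2 (3.94 ± 0.158 TPM), Adora2a (2.82 ± 0.832 TPM), P2rx5 (2.16 ± 0.0241 TPM) and Ada (1.86 ± 0.198 TPM). Entpd1 stood at 0.112 ± 0.0633 TPM. Of neighbours in this order, Adora1 and P2ry2 differed by less than the sum of their SDs, as did Adora2a and P2rx5. These levels divide by all annotated exon bases of a gene, and their order depends on that length. An alternative chosen after seeing the data used the length of the canonical transcript. There Nt5e led at 24.4 TPM, followed by Adora2b at 14.2 TPM and P2rx4 at 12.4 TPM, and Panx1 was at 8.33 TPM. Adora2b has 1 annotated transcript, so its value moved only because the library total was rescaled. Values are therefore to be compared within each version and not between them. Ada then stood at 3.09 TPM, above Adora2a at 2.85 TPM and Adora1 at 2.66 TPM.

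**Figure D1:**
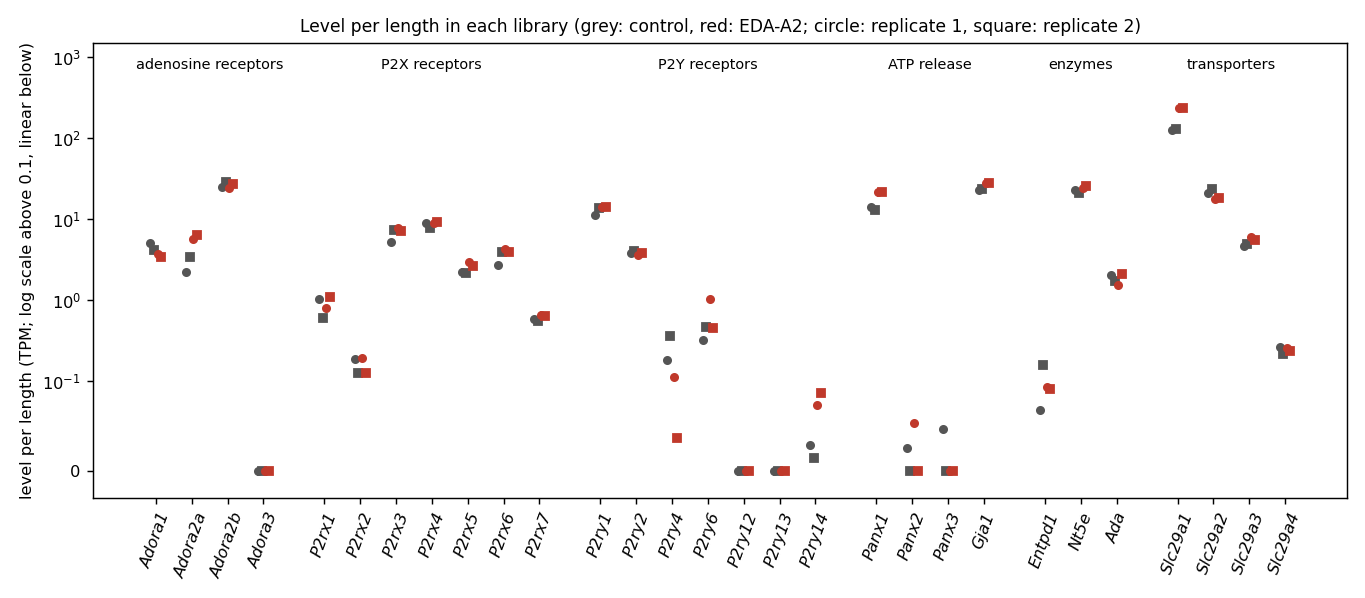
Level per length in TPM (vertical axis, logarithmic above 0.1 and linear below) of the adenosine, P2X and P2Y receptor genes, Panx1, Panx2, Panx3, Gja1, Entpd1, Nt5e, Ada and the Slc29 transporter genes in each of the 4 libraries, control in grey and EDA-A2 in red. Of the genes plotted Slc29a1 has the highest level, 126 TPM in control, Adora2b leads the adenosine receptors, and Adora3, P2ry12 and P2ry13 lie at 0 in every library.

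Of the 3 adenosine receptor genes, Adora2a was higher after EDA-A2 and the others were not. Adora2a (ENSMUSG00000020178, chromosome 10 from 75152560 to 75170628 of GRCm39) encodes a high-affinity adenosine receptor that raises cyclic AMP through Gs. It had 75.2 and 112.9 normalized counts in control replicates 1 and 2, and 174.5 and 199.5 in EDA-A2 replicates 1 and 2. Both treated libraries lay above both controls, and the controls differed from each other by more than the treated libraries did. The log2 fold change was 0.99, with a standard error (SE) of 0.20, or 1.98-fold. It lay past the threshold of an adjusted p-value of 0.05 in the fit across all 15173 genes tested by edgeR's quasi-likelihood test. It did not pass without control replicate 1 (log2 fold change 0.72), control replicate 2 (1.31) or EDA-A2 replicate 2 (0.89), or with no filter on low counts. Few of all genes passed with a control left out.

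Adora1 (ENSMUSG00000042429, chromosome 1 from 134126948 to 134163579 of GRCm39) encodes the A1 receptor, which couples to Gi. Control replicates 1 and 2 held 205.0 and 166.4 normalized counts of it, and the treated ones 139.2 and 132.7. Both treated libraries were lower than both controls, with a log2 fold change of -0.45 (SE 0.16) that did not pass the threshold. The value was -0.29 without control replicate 1 and -0.60 without control replicate 2. Of the exon bases of Adora1, 52.4% lie opposite exons of Mybph, a thick filament gene transcribed from the other strand. Mybph held 56191 and 52596 counts in control and 44260 and 44984 after EDA-A2, with a log2 fold change of -0.34 (SE 0.07, edgeR adjusted p = 0.0117). The strand option of the counting is not given in the sources used here, so how far the 2 genes were kept apart is uncertain, and the part of Mybph in the Adora1 value was not tested.

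Adora2b (ENSMUSG00000018500, chromosome 11 from 62139804 to 62157279 of GRCm39) encodes the A2B receptor, the low-affinity receptor that also raises cyclic AMP. Its normalized counts were 292.6 and 335.8 in control and 265.6 and 303.7 after EDA-A2. The groups overlapped, and the log2 fold change was -0.14 (SE 0.13). Adora3, the gene of the remaining adenosine receptor, had 0 counts in every library. Per length, Adora2b made up 77.4% and 79.3% of the summed adenosine receptor level in control and 72.3% and 73.7% after EDA-A2. The share of Adora2a was 7.0% and 9.38% in control and 16.7% and 17.0% after EDA-A2, and that of Adora1 was 15.6% and 11.3% against 10.9% and 9.29%. These shares use all annotated exon bases. With the length of the canonical transcript Adora2a (2.85 TPM) stood above Adora1 (2.66 TPM) in control, and Adora2b (14.2 TPM) still led. The summed level itself was 31.9 and 36.3 TPM in control and 33.4 and 36.6 TPM after EDA-A2, so the groups overlapped.

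**Figure D2:**
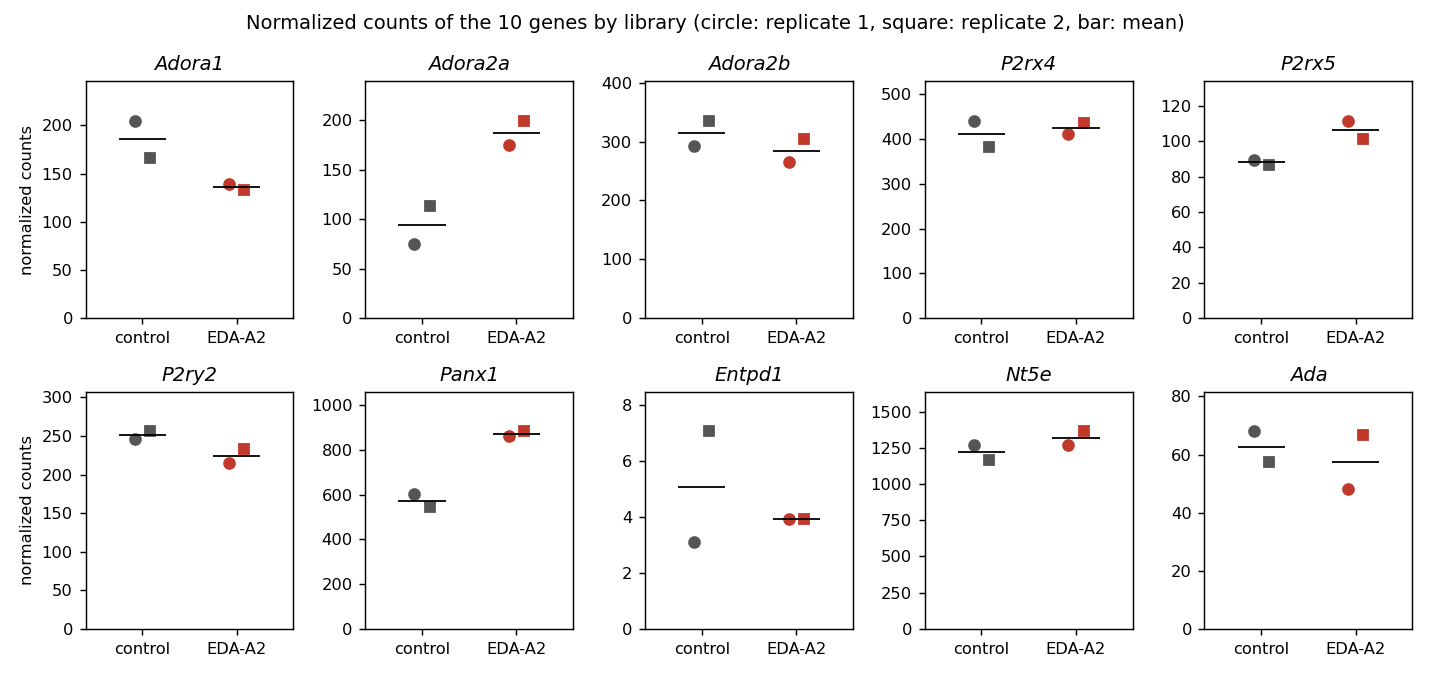
Normalized counts (vertical axes, from 0) of each of the 10 genes in control (grey) and EDA-A2 (red) libraries, with replicate 1 as a circle, replicate 2 as a square and the mean as a bar. Panx1, Adora2a and P2rx5 (higher) and Adora1 and P2ry2 (lower) separate by group, as 45% of all genes tested do. Panx1 is at 545.5 to 601.7 in control and 862.6 to 883.5 after EDA-A2. The groups overlap for Adora2b, P2rx4, Nt5e, Ada and Entpd1.

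Panx1 (ENSMUSG00000031934, chromosome 9 from 14913424 to 14956813 of GRCm39) encodes pannexin 1, a large-pore membrane channel through which ATP leaves the cell. Its normalized counts were 601.7 and 545.5 in control and 862.6 and 883.5 after EDA-A2. The treated libraries lay close to each other and above both controls. The log2 fold change was 0.61 (SE 0.09), or 1.52-fold, and it lay past the threshold. Without control replicate 1 it was 0.68 and without control replicate 2 it was 0.53, and neither value passed, in fits where 7 and 9 of all genes were called. Nor did it pass with no filter on low counts. The annotation places a long noncoding RNA, Gm68912, opposite 13.9% of the exon bases of Panx1. Gm68912 is not in the count tables, so its part in the Panx1 value was not tested.

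None of the 3 purine receptor genes among the 10 passed the threshold. P2rx4 (ENSMUSG00000029470, chromosome 5 from 122845541 to 122867803 of GRCm39), a P2X channel gene expressed in many tissues, had 441.0 and 381.2 normalized counts in control and 411.7 and 435.4 after EDA-A2. The treated values lay within the range of the controls, the log2 fold change was 0.04 (SE 0.11), and it was -0.06 without control replicate 2. P2rx5 (ENSMUSG00000005950, chromosome 11 from 73050362 to 73066157 of GRCm39), whose product is known from differentiating muscle cells, had 89.6 and 86.7 against 111.7 and 101.2 normalized counts. The groups did not overlap, but the log2 fold change of 0.27 (SE 0.19) did not pass. Exons of Emc6 on the other strand lie opposite 31.7% of those of P2rx5. Emc6 had 1318 and 1327 counts in control and 1368 and 1493 after EDA-A2, a log2 fold change of 0.06 (SE 0.08). The part of Emc6 in the P2rx5 value was not tested. P2ry2 (ENSMUSG00000032860, chromosome 7 from 100640649 to 100663957 of GRCm39), a receptor for ATP and UTP that couples to Gq, had 246.2 and 256.1 against 215.6 and 232.9 normalized counts. It too separated by group, downwards, with a log2 fold change of -0.16 (SE 0.13) that did not pass.

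Among the enzymes, none of the 3 genes passed. Nt5e (ENSMUSG00000032420, chromosome 9 from 88209089 to 88254146 of GRCm39) had 1270 and 1167 normalized counts in control and 1268 and 1364 after EDA-A2. The groups overlapped, with a log2 fold change of 0.11 (SE 0.08). Ada (ENSMUSG00000017697, chromosome 2 from 163565705 to 163592159 of GRCm39), which encodes adenosine deaminase, had 68.0 and 57.5 against 48.0 and 66.8 normalized counts. The EDA-A2 libraries lay on either side of the lower control, and the log2 fold change of -0.13 (SE 0.25) was 0.09 without EDA-A2 replicate 1. Exons of Pkig lie opposite 20.2% of those of Ada. Pkig had 7120 and 7500 counts in control and 7697 and 7558 after EDA-A2, a log2 fold change of 0.01 (SE 0.07). The part of Pkig in the Ada value was not tested. Entpd1 (ENSMUSG00000048120, chromosome 19 from 40600810 to 40731585 of GRCm39) had raw counts of 3 and 7 in control and 4 and 4 after EDA-A2, did not pass the filter on low counts and was not tested. A change in Entpd1 was not detectable at this depth.

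Of the 10 genes, 9 passed the filter on low counts, and of these 2 were called higher and 0 lower. By the same edgeR test 3 of the 9 had an unadjusted p-value under 0.05, as did 2372 of all 15173 genes tested. Over all genes tested, 4.57% were called (2.45% higher and 2.13% lower). With the DESeq2 Wald test 2 were called higher and 0 lower, and 2 had an unadjusted p-value under 0.05, as did 1570 of all genes. The 9 had a median log2 fold change of 0.04, against -0.00 over all genes tested, and 5 were positive. Groups did not overlap for 5 of the 9, where 45% of all genes tested did not overlap (22.8% higher and 22.2% lower). The genes were chosen with these values known, so nothing is read from the counts.

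**Figure D3:**
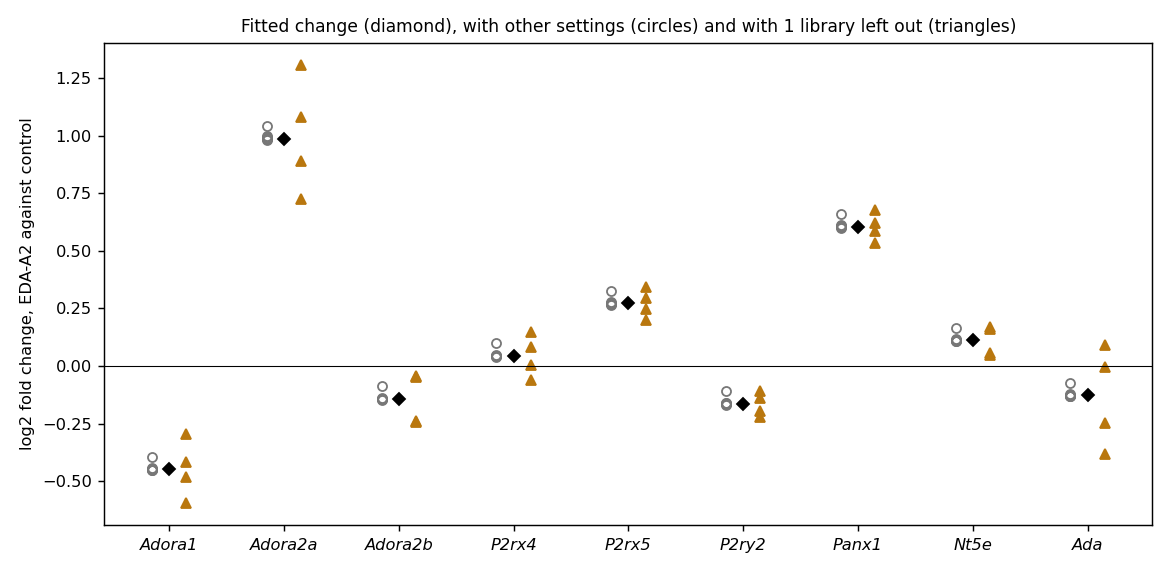
Log2 fold change of the 9 genes tested (vertical axis), as fitted (diamonds), under 7 other settings of scaling, filter, test or block (circles) and in fits on 3 of the 4 libraries (triangles). Adora2a ranges from 0.72 to 1.31 when a library is left out and Panx1 from 0.53 to 0.68, while Ada and P2rx4 cross 0.

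Beyond the 10 genes, genes of adenosine transport, nucleotide breakdown and cyclic AMP synthesis were among those called. Of the 86 other genes 62 were tested, and 4 were called higher and 3 lower by edgeR's quasi-likelihood test adjusted over all genes, of which 2.45% were called higher and 2.13% lower. With no filter on low counts 1 was called higher, Slc29a1, and 0 lower. In that edgeR fit 11 of the other genes had an unadjusted p-value under 0.05, as did 2264 of all 25545 genes. The DESeq2 Wald test, run on the filtered genes, called 4 higher and 2 lower. The median log2 fold change of the 62 was 0.00, with 32 above 0. This list was made with earlier results known, so nothing is read from these counts. Of the 7 called, the largest change belonged to Slc29a1, which encodes ENT1, the equilibrative transporter that carries adenosine across the plasma membrane. Slc29a2, for the related transporter ENT2, was lower. In the account of each role, genes that did not pass and are not among the most abundant of that role were chosen after their values were seen.

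Slc29a1 (ENSMUSG00000023942, chromosome 17 from 45896125 to 45910733 of GRCm39) had 6162 and 6232 normalized counts in control and 10682 and 11006 after EDA-A2. Both treated libraries lay far above both controls. The log2 fold change was 0.81 (SE 0.07, edgeR adjusted p = 3.6e-06), a rise of 1.75-fold, and it was 0.79 to 0.83 with each library left out. The adjusted p-value was 0.136 without control replicate 1 and 0.096 without control replicate 2 in edgeR, where the single control is assumed to vary like the treated pair. With 126 ± 2.55 TPM in control it was also the most abundant of the nucleoside transporter genes, ahead of Slc29a2 at 22.0 ± 1.87 TPM and Slc29a3 at 4.79 TPM.

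Slc29a2 (ENSMUSG00000024891, chromosome 19 from 5073562 to 5082385 of GRCm39) fell from 693 and 768 to 552 and 571 normalized counts, a log2 fold change of -0.38 (SE 0.10, edgeR adjusted p = 0.0327). This call did not hold under total counts (adjusted p = 0.0881 in edgeR) or with the DESeq2 Wald test (adjusted p = 0.0746). Nor did it hold with any 1 library left out, where the log2 fold change was -0.455 to -0.3073. Few of all genes passed with a control left out. Neither Slc29a3, a transporter of lysosomes and mitochondria, nor Slc29a4 passed, with log2 fold changes of 0.17 and -0.05. The concentrative transporter genes Slc28a1, Slc28a2 and Slc28a3 had at most 10 counts in any library. Adk, the kinase that returns adenosine to AMP, had a log2 fold change of -0.05 (SE 0.08), Pnp 0.06 and Adal 0.19, and none of these passed.

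Enzymes that act on nucleotides outside the cell gave 2 calls among 7 genes tested, both higher, where 2.45% of all genes tested were called higher. Enpp4 (ENSMUSG00000023961, chromosome 17 from 44407146 to 44416863 of GRCm39), which cleaves diadenosine polyphosphates, rose from 432 and 460 to 616 and 593 normalized counts (log2 fold change 0.44, SE 0.10, edgeR adjusted p = 0.0182). Acp3 (ENSMUSG00000032561, chromosome 9 from 104165441 to 104214947 of GRCm39), an acid phosphatase with a membrane form that dephosphorylates AMP to adenosine, rose from 338 and 375 to 485 and 505 normalized counts (log2 fold change 0.47, SE 0.11, edgeR adjusted p = 0.0199). For both genes the treated libraries lay above both controls, but neither call held when any 1 library was left out. Without a library the log2 fold change was 0.39 to 0.48 for Enpp4 and 0.40 to 0.55 for Acp3. Few of all genes passed with a control left out. Exons of Enpp5 lie opposite 20.6% of the exon bases of Enpp4, and Enpp5 had a log2 fold change of -0.06 (SE 0.13). Alpl, tissue-nonspecific alkaline phosphatase, had 4 to 16 counts and a log2 fold change of -1.04 with an SE of 0.52, and did not pass.

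Purine salvage and breakdown gave 1 call among 8 genes tested, which was higher, where 2.45% of all genes tested were called higher. Ampd3 (ENSMUSG00000005686, chromosome 7 from 110366387 to 110411617 of GRCm39), an AMP deaminase that turns AMP inside the cell into IMP, rose from 1568 and 1432 to 2263 and 2113 normalized counts. The log2 fold change was 0.54 (SE 0.08, edgeR adjusted p = 0.000613), or 1.46-fold. The call was lost without control replicate 1 (log2 fold change 0.61) and without control replicate 2 (0.48), in fits where few of all genes passed. Ampd1, the isoform of mature skeletal muscle, had 155.6 and 232.9 against 290.1 and 218.2 normalized counts, and the groups overlapped. Its log2 fold change was 0.39 (SE 0.19, edgeR adjusted p = 0.342), and that of Ampd2 was 0.06. The salvage enzymes Hprt1 and Aprt, the most abundant of the 8 per length at 110 ± 1.88 and 154 ± 11.7 TPM in control, had log2 fold changes of -0.05 and -0.14 and did not pass.

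Receptor transduction, the G proteins and effector enzymes that receptors act on, gave 2 calls among 17 genes tested, both lower. Over all genes tested 2.13% were called lower. Adcy1 and Adcy2 encode adenylyl cyclases, which make cyclic AMP. Adcy1 (ENSMUSG00000020431, chromosome 11 from 7013330 to 7128506 of GRCm39) fell from 1895 and 2069 to 1424 and 1515 normalized counts (log2 fold change -0.43, SE 0.08, edgeR adjusted p = 0.00364). Adcy2 (ENSMUSG00000021536, chromosome 13 from 68758255 to 69147818 of GRCm39) fell from 761 and 795 to 544 and 568 normalized counts (log2 fold change -0.48, SE 0.09, edgeR adjusted p = 0.00535). Neither call held without control replicate 1, control replicate 2 or EDA-A2 replicate 1. In these fits the log2 fold change was -0.50, -0.37 and -0.39 for Adcy1 and -0.52, -0.46 and -0.45 for Adcy2. Few of all genes passed with a control left out. Adcy6, the cyclase gene with the most counts, had a log2 fold change of -0.12 (SE 0.08), and Adcy8 had -0.58 (SE 0.19), and neither passed. Of the G protein genes, Gnas, which encodes the Gs subunit that the receptors of Adora2a and Adora2b use, had 503 ± 12.1 TPM in control and a log2 fold change of -0.18 (SE 0.07, edgeR adjusted p = 0.173), and Gnai2 had 273 ± 29.4 TPM and 0.00.

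**Figure D4:**
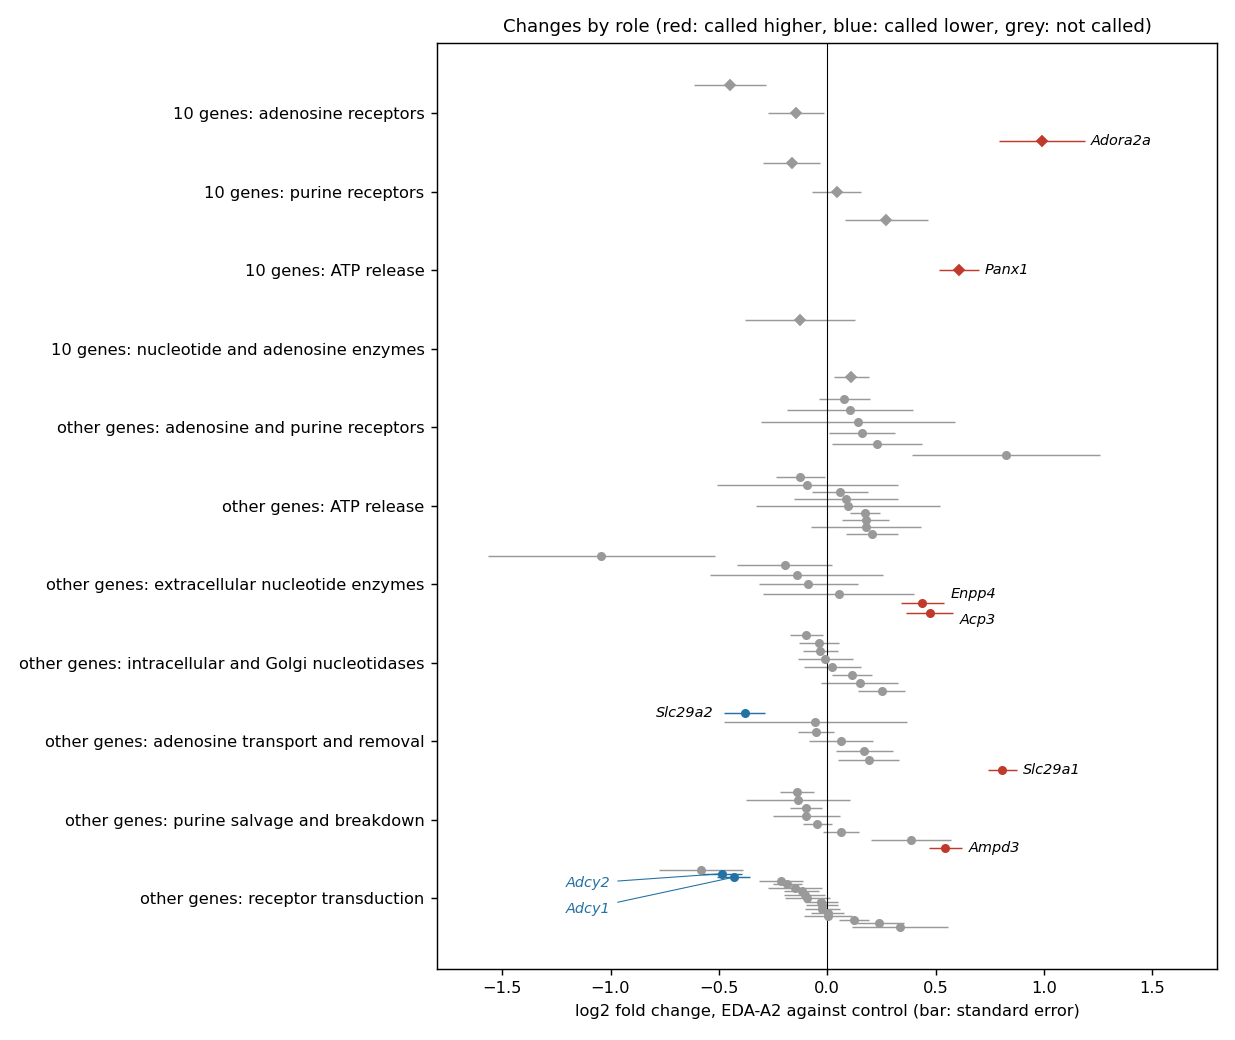
Log2 fold change of EDA-A2 against control (horizontal axis, bars are standard errors) for the 9 tested of the 10 genes (diamonds) and the 62 tested of the other purinergic genes (circles), in rows by role. Red marks genes called higher, among them Slc29a1 at 0.81 and Ampd3 at 0.54, and blue those called lower, Slc29a2, Adcy1 and Adcy2.

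The other receptor genes gave no call. Of 12 receptor genes outside the 10, 6 were tested and 0 passed, and their median log2 fold change was 0.15. In edgeR 0 of the 6 had an unadjusted p-value under 0.05, where 2372 of all 15173 genes did. Among P2X receptors P2rx4 and P2rx3 were the most abundant per length, with 42.8% and 34.6% of the summed level for P2rx4 and 25.2% and 32.6% for P2rx3 in control. Exons of Ssrp1, with 5033 to 5301 counts in a library, lie opposite 2.74% of the exon bases of P2rx3. Those of Slc7a4, with 58 to 88 counts, lie opposite 57% of P2rx6, which is also in that sum. The part of these genes in the shares was not tested. P2rx3, best known from sensory neurons, had 210.2 and 290.4 against 289.2 and 270.3 normalized counts. The spread of the controls covered that difference, with a log2 fold change of 0.16 (SE 0.15), and -0.06 without control replicate 1. P2rx7, the channel of inflammatory cells, had 33 to 38 counts in every library.

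Among P2Y receptors P2ry1, a receptor for ADP, led with 72.2% and 73.7% of the summed level per length in control and 74.3% and 76.1% after EDA-A2. P2ry2 held 24.5% and 21.7% against 19.2% and 20.8%. P2ry6, a receptor for UDP, had 13 and 19 counts in control and 41 and 18 after EDA-A2, and the groups overlapped, with a log2 fold change of 0.82 (SE 0.43). P2ry12 and P2ry13 had 0 counts throughout, which at this depth allows up to 3 counts a library.

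ATP release genes other than Panx1 gave no call among 9 tested, with 1 at an unadjusted p-value under 0.05. In edgeR 2372 of all 15173 genes reached that level. Gja1, the gene of the hemichannel protein connexin 43, had 1804 and 1807 against 2013 and 2061 normalized counts. Both treated libraries lay above the controls, with a log2 fold change of 0.17 (SE 0.07, edgeR adjusted p = 0.227). The volume-regulated channel genes Lrrc8a to Lrrc8e had log2 fold changes between -0.12 and 0.21. The other pannexin genes Panx2 and Panx3 had at most 2 counts in any library. Intracellular nucleotidase genes gave no call among 8 tested, with 1 at an unadjusted p-value under 0.05. The most abundant of them over all exon bases, Nt5c at 46.7 ± 1.32 TPM and Nt5c2 at 23.5 ± 1.66 TPM in control, had log2 fold changes of 0.25 and -0.10. With the length of the canonical transcript Nt5c3b (39.4 TPM) and Nt5c3 (34.8 TPM) stood above Nt5c (33.5 TPM) and Nt5c2 (23.9 TPM). Entpd4, which has a near-identical copy on the same chromosome, had at most 2 counts and is uncertain.

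The promoters of these genes were read for a binding motif of NF-κB, the transcription factor that TNF family receptors activate, and for the core TGACG of the cyclic AMP response element, on both strands. Windows of 300 bases from RefSeq, 250 before to 50 after a start site, were found for 8 of the 10 genes (11 windows) and for the 7 other genes called (16 windows), and each matched GRCm39 exactly once. A match is a stretch of letters and not a site shown to be bound. The NF-κB consensus was found in 1 of the 11 windows, that of Ada, and in 2 of the 16, those of Enpp4 and Slc29a1, where 8.46% of all 32851 windows held it. The core was found in 4 of the 11, at Panx1, P2rx4 and Entpd1, and in 1 of the 16, where 20.8% of all windows held it. The windows printed are those of Panx1, the gene of the 10 with a window that was called higher, Ada, the only one of the 10 with the NF-κB consensus, and the window of Slc29a1 that holds it. Capitals mark the matches, which are the core read on the other strand in Panx1 and the NF-κB consensus in Ada and Slc29a1.
Panx1 (chr9:14956725-14957024, GRCm39, minus strand): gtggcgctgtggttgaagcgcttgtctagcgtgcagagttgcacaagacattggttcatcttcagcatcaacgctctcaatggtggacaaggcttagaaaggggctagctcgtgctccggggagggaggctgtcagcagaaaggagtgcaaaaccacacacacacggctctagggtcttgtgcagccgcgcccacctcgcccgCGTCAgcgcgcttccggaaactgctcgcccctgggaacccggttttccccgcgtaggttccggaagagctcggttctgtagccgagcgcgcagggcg
Ada (chr2:163592110-163592409, GRCm39, minus strand): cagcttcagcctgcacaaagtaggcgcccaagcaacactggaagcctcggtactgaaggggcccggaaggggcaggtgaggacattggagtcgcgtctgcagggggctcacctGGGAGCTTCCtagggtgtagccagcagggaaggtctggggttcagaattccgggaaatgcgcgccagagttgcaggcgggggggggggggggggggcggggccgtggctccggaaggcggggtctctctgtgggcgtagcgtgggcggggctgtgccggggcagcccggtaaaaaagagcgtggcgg
Slc29a1 (chr17:45906123-45906422, GRCm39, minus strand): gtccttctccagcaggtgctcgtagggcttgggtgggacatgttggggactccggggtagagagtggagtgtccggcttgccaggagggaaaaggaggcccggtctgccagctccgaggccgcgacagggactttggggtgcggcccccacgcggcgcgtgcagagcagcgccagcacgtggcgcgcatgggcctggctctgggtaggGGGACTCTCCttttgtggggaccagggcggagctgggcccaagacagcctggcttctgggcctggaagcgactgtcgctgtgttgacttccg
Panx1 and Slc29a1 were higher after EDA-A2 and Ada was not called. In Slc29a1 the match begins 42 bases before the start site of its window, 1 of 8 windows that RefSeq gives for that gene and inside its annotated span, and in Ada it begins 137 bases before.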

How the data were processed

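RNA from 4 libraries of mouse primary myotubes (2 control, 2 EDA-A2) was sequenced as stranded mRNA libraries. Per the submitters' processing notes, reads were checked with FastQC 0.11.9 and MultiQC 1.12, trimmed with Trim Galore 0.6.5, aligned to GRCm39 with STAR 2.7.3a and counted with HTSeq 0.11.1; the annotation release and strand option are not given in the sources used here. The authors deposited raw counts per gene for each library. Rows naming no gene took 12.2 to 13% of each table and were left out.

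Genes were named and measured with GENCODE vM39 (52610 of 53647 matched). The filter on low counts was edgeR's filterByExpr, which asks for about 10 counts, scaled for library size, in at least 2 libraries and a total of 15. Genes that passed entered a quasi-likelihood fit on all 4 libraries with TMM factors (R 4.3.3, edgeR 4.0.16, limma 3.58.1). Their p-values were adjusted by Benjamini-Hochberg over 15173 genes with a threshold of 0.05. Standard errors (SE) were derived from the F statistic of each gene. TPM was computed from counts and merged exon bases. Alternatives covered scaling, filter, DESeq2 1.42.0, a replicate block and leaving out each library. The fit was tested on simulated data with 200 changed genes. The members and lists were chosen with earlier results of these data known. Named are the 10 genes, every other listed gene called, the 2 most abundant of each role, and a few chosen after their values were seen.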

Additional observations from a re-analysis of the deposited data

How the results depend on the processing

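Without the filter on low counts (25545 genes tested), 64 genes were called higher and 22 lower, with 0 of the 10 genes (3 at an unadjusted p-value under 0.05 in edgeR), and 1 of the other purinergic genes higher and 0 lower (11 at an unadjusted p-value under 0.05). Over all genes of that fit, 2264 had an unadjusted p-value under 0.05. The DESeq2 Wald test was run on the 15173 filtered genes, where it called 2 of the 10 genes higher, and 4 of the others higher and 2 lower. Scaling by total counts called 485 higher and 194 lower and moved the median log2 fold change of all genes to 0.05, against 371 and 323. The labels do not say whether the replicate numbers mark a shared source. Across the 15173 genes tested, the difference of replicate 1 from replicate 2 in control correlated at 0.0566 with that in EDA-A2. A replicate block called 537 higher and 529 lower and left 2 of the 10 genes and 4 and 3 of the others called. Leaving out 1 library gave 7 to 223 genes higher and 0 to 193 lower, 0 to 2 of the 10 genes higher and 0 lower, and 0 to 2 of the others higher and 0 to 2 lower. With a control left out, the unadjusted p-value in edgeR was under 0.05 for 2258 and 2492 genes, and the lone control is assumed to vary like the EDA-A2 pair. The signs that turned were those of Hprt1 with total counts (0.0081), Gnai2 with DESeq2 size factors and with DESeq2 (-0.0006) and with no filter (-0.0034), and, over the fits that left out 1 library, Ada (-0.384 to 0.0915), P2rx4 (-0.061 to 0.1496), P2rx3 (-0.0564 to 0.4094), P2ry1 (-0.0465 to 0.2103) and Gnai2 (-0.0954 to 0.0996); the cause was not tested. Of 286 log2 fold changes of single genes under alternatives, 239 kept their direction and side of the threshold, 37 no longer passed and 10 turned.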

Other observations

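Slc29a1 lies 505 bases from Mymx, which encodes myomixer, a peptide needed for myoblast fusion, on the same strand of chromosome 17. Mymx had 2542 and 2630 counts in control and 6318 and 6227 after EDA-A2, a log2 fold change of 1.22 (SE 0.07, edgeR adjusted p = 2.95e-08). On its other side Slc29a1 lies 4175 bases from Hsp90ab1, a heat shock protein gene, which had a log2 fold change of 0.11 (SE 0.07, edgeR adjusted p = 0.505). Farther on that side, 21.5 kb from Slc29a1, lies Nfkbie, which encodes an inhibitor of NF-κB. Nfkbie had 133 and 162 counts in control and 1309 and 1412 after EDA-A2, a log2 fold change of 3.15 (SE 0.11, edgeR adjusted p = 6.24e-10). The neighbours were looked up after the Slc29a1 value was seen, and no relation between these genes was tested.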
